A study of Arabidopsis thaliana with 6 samples.

Results

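The genes described here are the chloroplast's own genes for photosynthesis and gene expression, read on arrays of Arabidopsis thaliana rosettes. A gene was taken where a probe set named exactly 1 gene whose symbol begins with psa, psb, ndh, pet, atp, rpo, rps or rpl in lower case, followed by a capital letter or a digit. This gave 61 genes of the 13356 genes with such a probe set, all 61 on the plastid chromosome in the RefSeq gene table, and each had 1 probe set. None of the 61 is mitochondrial. Another 6 probe sets named a pair of copies of a plastid gene (rps12, rpl2, rpl23, ndhB and rps7) and stayed out. No filter on low values was applied, so all 61 genes were tested.

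Plants were cat2-2 in the Col-0 background, a mutant of the main leaf catalase, which removes the hydrogen peroxide that photorespiration makes. Treated rosettes were taken at 24 h and 22 days of age, after parafilm had been put round the plates to limit gas exchange and the light left on without a break (3 arrays). The submitters name this a photorespiratory condition. Untreated rosettes were taken at 0 h and 21 days of age, before that change (3 arrays). All plants grew on plates with 1% sucrose in 16 h of light and 8 h of dark at 100 μmol per square metre and second, beside plants of shr-6 cat2-2, which were not analysed here. Every array held RNA of at least 15 pooled rosettes. There was no untreated group at 24 h, so the treatment, the extra light period, the plant's age and the hour of sampling cannot be told apart. In rosette RNA, fewer chloroplasts per cell and less transcript per chloroplast cannot be told apart either.

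Chloroplasts keep a small genome that is read mostly as polycistronic units, in which neighbouring genes are transcribed together and then cut, trimmed and edited. A bacterial-type polymerase with plastid-encoded core subunits (the rpo genes) reads most photosynthesis genes, and phage-type polymerases made in the nucleus read the rpoB unit and contribute to many others. The psa and psb genes encode core subunits of photosystem I and photosystem II, pet genes those of the cytochrome b6f complex between them, atp genes the ATP synthase, and ndh genes a complex for cyclic electron flow. An exception is psbN, for an assembly factor of photosystem II. The rps and rpl genes encode proteins of the small and the large ribosomal subunit. Labelling with the kit named in the labels starts from poly(A) tails, and most chloroplast mRNAs carry none or a short tail tied to decay. A level here is therefore the signal of one probe set after that step. Where genes are ordered or ranked by level below, the order is of this signal and not of transcript amounts. How far tails affected the differences was not tested.

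After 24 h of treatment, transcripts of 35 of the 61 genes had fallen, those of 2 had risen and 24 did not pass the test. The share that fell was 57.4%, against 22.2% of all 22746 probe sets, and the share that rose was 3.28%, against 19.4%. The median difference, treated minus untreated, was -0.42 on the log2 scale, against -0.01 over all probe sets. The largest decreases were in psbK, ndhJ and ndhK, at 2.25-, 2.17- and 2.01-fold, and the increases were in rps14 (1.78-fold) and petD (1.3-fold). Of the 61 genes, 18 fell at least 1.5-fold, where 9.56% of all probe sets were called lower by as much. Those that fell at least 2-fold were 3 of the 61, a share near the 3.89% of all probe sets. Differences are of RMA log2 levels, with 3 arrays in either group, and ± gives the standard error (SE). A gene is said to have fallen or risen where its limma p, adjusted by Benjamini and Hochberg's method across the 22746 probe sets, was under 0.05. RMA sets levels relative to the bulk of transcripts. With arrays anchored on the 13 brighter poly(A) spikes, which raised each difference by 0.15, 24 genes fell and 2 rose. The calls that ended on that scale were those of psaI, psbC, psbD, psbH, psbJ, petA, ndhA, ndhD, rpoB, rps3 and rpl22, at log2 -0.34 to -0.07. On the hybridization controls the same calls ended except those of psaI and psbH, while rpoC2, petL and petG passed. Without moderation of the variances, 17 fell and 2 rose.

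**Figure D1:**
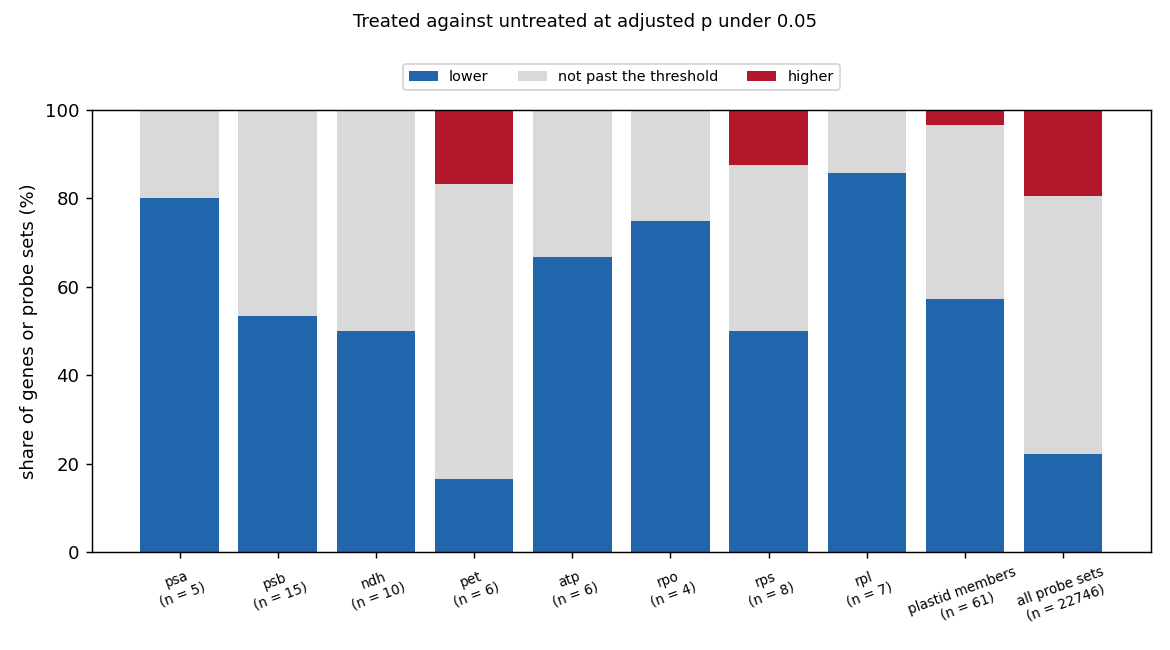
Share of genes lower, higher or not past an adjusted p of 0.05 in treated against untreated rosettes, for each gene stem, for the 61 plastid genes and for all 22746 probe sets (vertical axis in percent, n under each bar). Lower calls made up 57.4% of the plastid genes and 22.2% of all probe sets, and higher calls appear only in the pet and rps bars among the stems.

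All treated arrays lay below all untreated arrays for 42 of the 61 genes, against 26.7% of all probe sets, and above them for 2, against 24.0%. The median level of the 61 genes was 10.80, 11.12 and 10.86 on the treated arrays, against 11.62, 11.49 and 11.42 on the untreated arrays. Treated replicate 2 stood highest of its group for 47 genes, and untreated replicate 1 for 37. Without treated replicate 2 the median difference was -0.51 with 38 genes lower, and without untreated replicate 1 it was -0.31 with 30 lower. Array medians over all probe sets were 6.22 to 6.27. Control probe sets at the 3' and the 5' end of actin, GAPDH and ubiquitin transcripts formed 6 pairs. The 3' minus 5' difference was smaller in treated rosettes for the 3 AFFX-Athal pairs, by -0.30, -0.31 and -0.07 in that order. For the 3 AFFX-r2-At pairs of the same transcripts it was larger, by 0.13, 0.10 and 0.13. The part of this difference in the results was not tested. The tissue label was checked with leaf genes. RCA, the Rubisco activase, stood at 14.4 in treated and 14.2 in untreated rosettes, and the root hair expansin gene EXPA7 at 4.49 in treated and 4.46 in untreated rosettes. Of 5 leaf genes 2 fell and none rose: the light-harvesting genes LHCB4.2 (log2 -0.88 ± 0.08) and LHCB4.1 (log2 -0.24 ± 0.07). No flower marker could be tied to a probe set by its listed symbol. Of the other cell types' markers SWEET11, a sugar exporter of the phloem parenchyma, rose (log2 0.54 ± 0.08) and SPCH, which starts the stomatal lineage, fell (log2 -0.49 ± 0.09), while EXPA18, MUTE and FMA did not pass. The part of these cell types in the results was not tested.

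**Figure D2:**
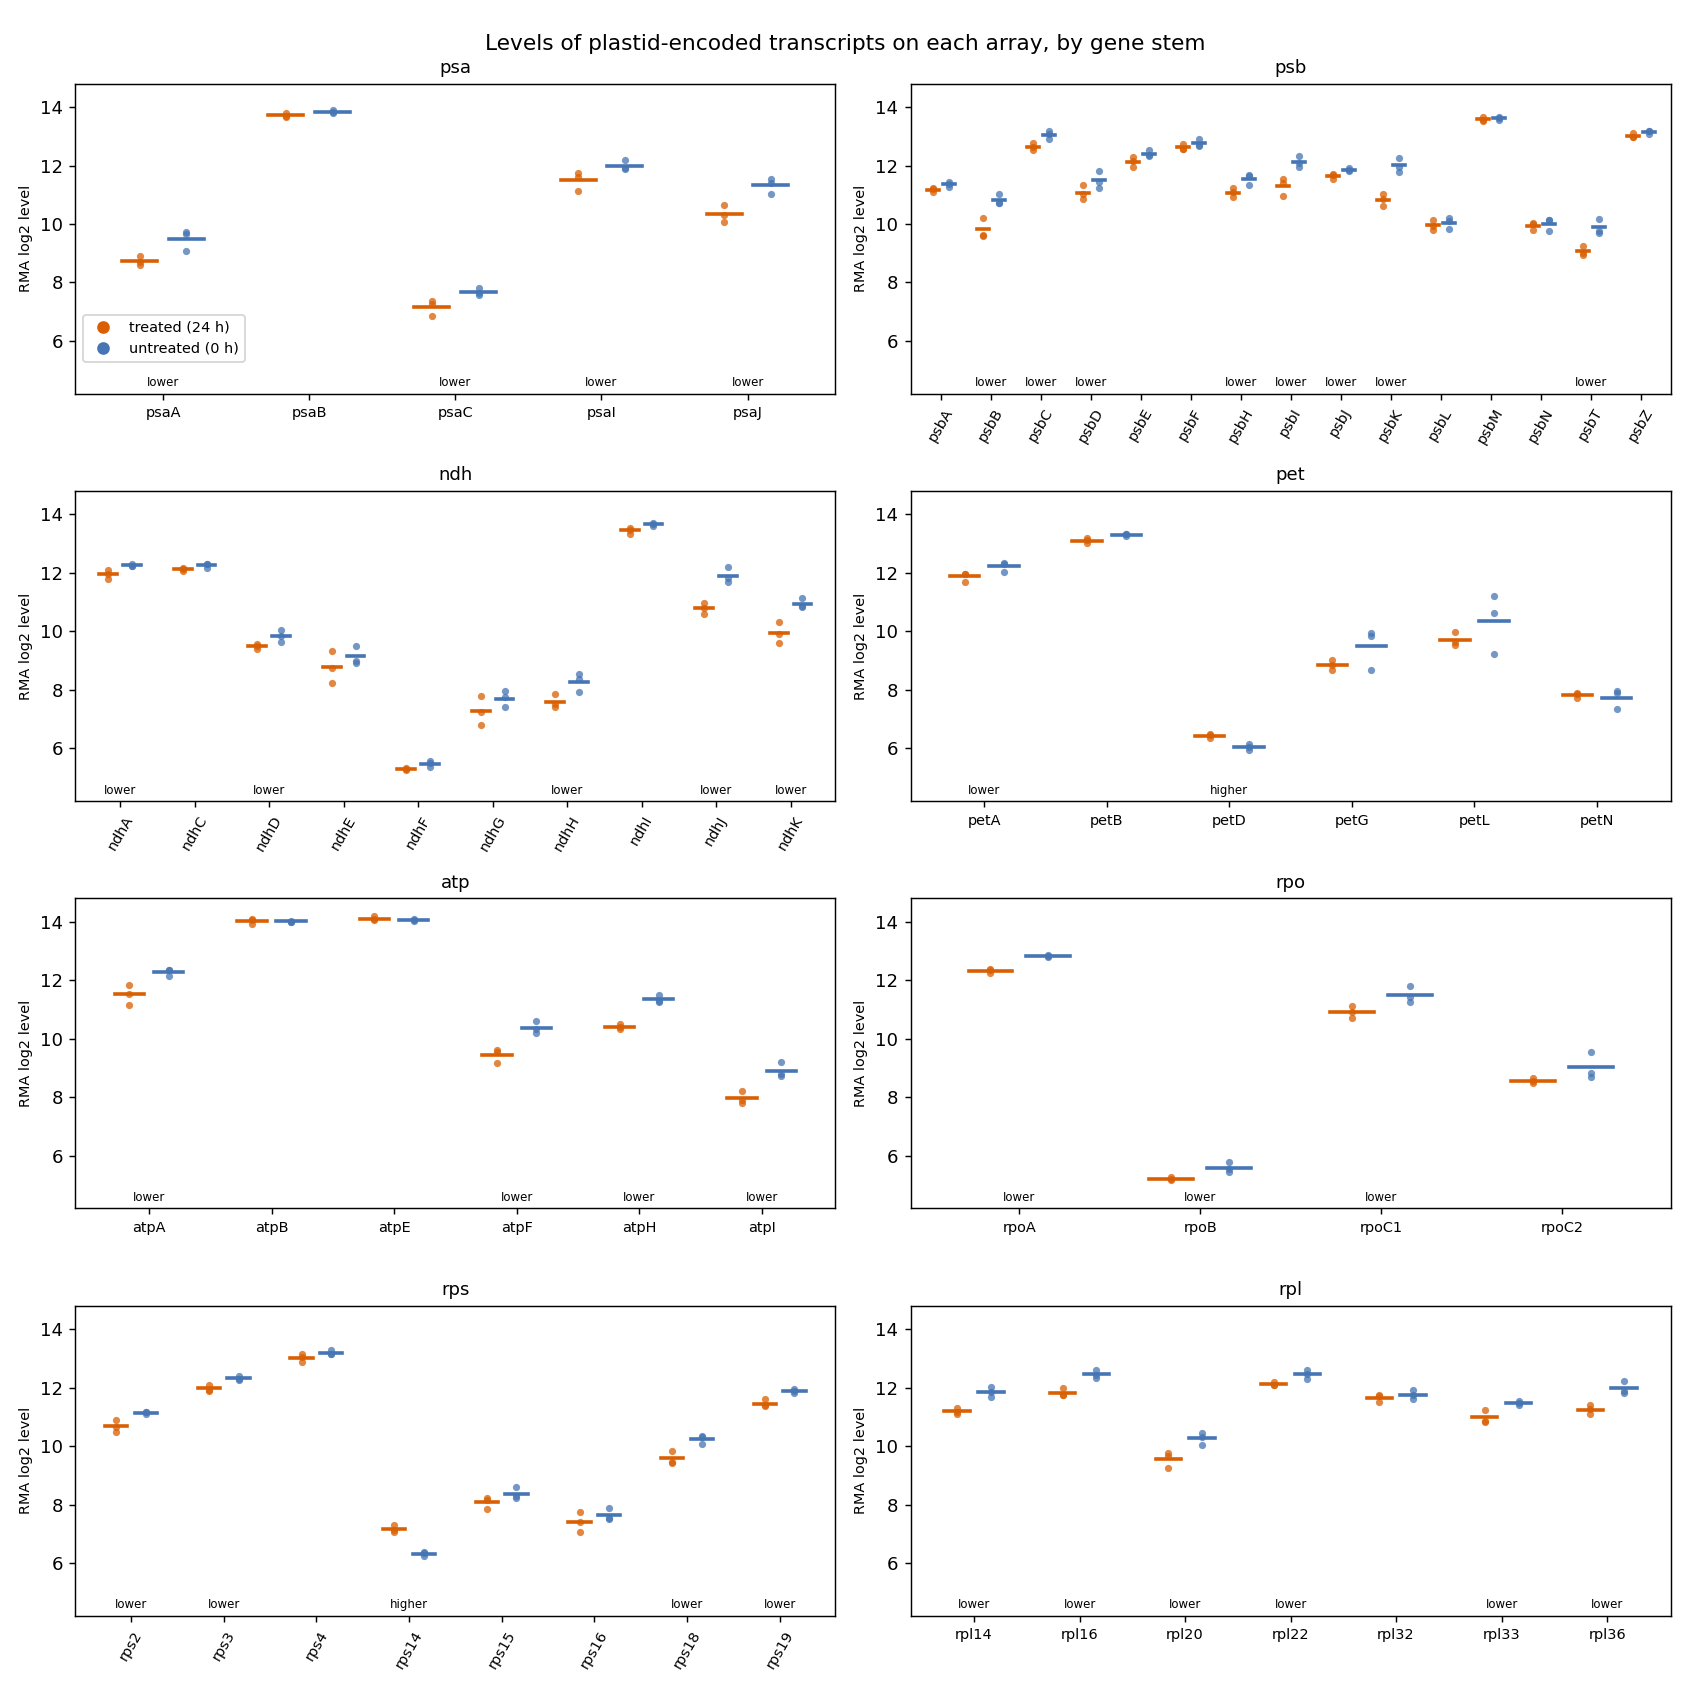
RMA log2 level of each plastid gene on each array, in 1 panel per stem. Points are arrays (treated left, untreated right), bars are group means, and "lower" or "higher" marks genes past an adjusted p of 0.05. The atpB and atpE levels lie near 14 in both groups, while the levels of atpA, atpF, atpH and atpI are separate in the groups.

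The ATP synthase genes split into 4 that fell and 2 that did not pass. The gene atpH encodes the ring subunit c through which protons pass. Its level was 10.49, 10.35 and 10.41 in treated rosettes, against 11.27, 11.49 and 11.30 in untreated rosettes (log2 -0.94 ± 0.08; adjusted p = 4.28e-06). The groups stood clear of each other by more than the whole spread within either. The gene atpF, for the stalk subunit b, had 9.53, 9.63 and 9.17 in treated and 10.60, 10.35 and 10.19 in untreated rosettes (log2 -0.94 ± 0.13). The gene atpI, for subunit a, which forms the proton channel with the ring, had 7.91, 8.21 and 7.80 in treated and 9.20, 8.81 and 8.72 in untreated rosettes (log2 -0.93 ± 0.14). The gene atpA, for the alpha subunit of the catalytic head, fell 1.69-fold (log2 -0.76 ± 0.14; adjusted p = 0.00118). These 4 genes share a transcription unit with rps2, which fell 1.37-fold (log2 -0.46 ± 0.10). The other unit holds atpB and atpE, for the beta and epsilon subunits of the head. The atpB level was 13.92, 14.11 and 14.06 in treated rosettes, against 14.04, 13.99 and 14.0045 in untreated rosettes (log2 0.02 ± 0.08; adjusted p = 0.906), and the arrays of the groups overlapped. The atpE difference was 0.05 ± 0.08 (adjusted p = 0.680).

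Of 5 photosystem I genes, 4 fell and psaB did not pass. The gene psaJ, for a small membrane subunit, had 10.08, 10.64 and 10.29 in treated rosettes, against 11.39, 11.03 and 11.53 in untreated rosettes (1.97-fold lower, log2 -0.98 ± 0.15; adjusted p = 0.000272). The core gene psaA had 8.58, 8.89 and 8.69 in treated and 9.71, 9.08 and 9.65 in untreated rosettes (log2 -0.76 ± 0.15; adjusted p = 0.00160). Untreated replicate 2 was the lowest of its group for both genes and still stood above every treated array. The other core gene, psaB, lies next to psaA and was at 13.68, 13.81 and 13.68 in treated rosettes, against 13.84, 13.79 and 13.90 in untreated rosettes, and the groups overlapped (log2 -0.12 ± 0.08; adjusted p = 0.239; log2 0.03 with arrays anchored on the brighter spikes). The psaC gene, for the subunit that holds the terminal iron-sulfur clusters, fell 1.43-fold, and psaI, for a small subunit, 1.41-fold. Leaving out untreated replicate 1 (log2 -0.40) or treated replicate 3 (log2 -0.31) ended the psaI call.

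Among 15 photosystem II genes, 8 fell and none rose, with a median of -0.27. The gene psbK, for a small core subunit, showed the largest decrease of all 61 genes, with 10.60, 11.03 and 10.86 in treated rosettes, against 11.96, 12.26 and 11.79 in untreated rosettes (log2 -1.17 ± 0.13; adjusted p = 2.57e-05). Its neighbour psbI had 10.95, 11.53 and 11.39 in treated and 12.09, 12.32 and 11.96 in untreated rosettes (log2 -0.83 ± 0.14). In both genes the highest treated array lay below the lowest untreated one. The gene psbB, for the core antenna protein CP47, had 9.64, 10.21 and 9.60 in treated and 11.01, 10.71 and 10.71 in untreated rosettes (log2 -0.996 ± 0.15; adjusted p = 0.000246). Further along the psbB unit, psbT fell 1.75-fold and psbH 1.38-fold, both for small membrane subunits. The antenna gene psbC, for CP43, fell 1.32-fold (log2 -0.40 ± 0.10; adjusted p = 0.00545), and stood at -0.25 (adjusted p = 0.0613) on the brighter spikes and -0.30 (adjusted p = 0.0696) on the hybridization controls.

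The reaction centre of photosystem II is built on the products of psbA and psbD. The gene psbA encodes D1, the protein that is damaged and replaced fastest in light. Its level was 11.21, 11.22 and 11.10 in treated rosettes, against 11.37, 11.43 and 11.27 in untreated rosettes (log2 -0.18 ± 0.08; adjusted p = 0.0986), so the groups did not overlap but the test was not passed. The gene psbD, for its partner D2, had 11.03, 11.32 and 10.87 in treated and 11.81, 11.22 and 11.45 in untreated rosettes (log2 -0.42 ± 0.15; adjusted p = 0.0418). The groups overlapped, and the psbD call held in only 2 of the 6 fits that each left out an array; it ended when untreated replicate 1 (log2 -0.26) or 3 (log2 -0.44), or treated replicate 1 (log2 -0.40) or 3 (log2 -0.32), was left out, and with the replicate number as a block (adjusted p = 0.0513). The small-subunit gene psbJ passed narrowly (log2 -0.22 ± 0.08; adjusted p = 0.0436), and its call was lost in all 6 such fits (log2 -0.25 to -0.17) and with the block (adjusted p = 0.0545). The other genes of its unit, psbE and psbF for the cytochrome of photosystem II and psbL, stood at -0.27 (adjusted p = 0.0536), -0.15 and -0.10; psbF and psbL turned to 0.00475 and 0.06 on the brighter spikes. The psbE test was passed with the replicate block (adjusted p = 0.0449) and without treated replicate 1 (log2 -0.36; adjusted p = 0.0250). The genes psbM, psbN and psbZ stood at -0.04, -0.06 and -0.12 without passing; all 3 turned positive on the brighter spikes, to 0.11, 0.09 and 0.03.

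Of the 6 cytochrome b6f genes, petA fell and petD rose. The shares, 16.7% lower and 16.7% higher, were below the 22.2% and 19.4% of all probe sets. The petA gene, for cytochrome f, had 11.97, 11.97 and 11.69 in treated rosettes, against 12.35, 12.31 and 12.03 in untreated rosettes, and fell 1.28-fold (log2 -0.35 ± 0.11; adjusted p = 0.0221), and that call ended when untreated replicate 1 (log2 -0.29) or 2 (log2 -0.31), or treated replicate 3 (log2 -0.26), was left out. The gene petD, for subunit IV, had 6.44, 6.48 and 6.37 in treated rosettes, against 6.14, 5.96 and 6.06 in untreated rosettes (log2 0.38 ± 0.08; adjusted p = 0.00262). Every treated array was above every untreated one, and its mean level ranked at the 49.6th percentile among all those tested. Its neighbour petB, for cytochrome b6, did not pass (log2 -0.19 ± 0.08; adjusted p = 0.0740). The genes petL and petG, for small subunits, are neighbours. The petL level was 9.53, 9.96 and 9.65 in treated rosettes, against 10.64, 9.23 and 11.20 in untreated rosettes (log2 -0.64 ± 0.37; adjusted p = 0.202). The petG level was 8.84, 9.01 and 8.67 in treated and 9.94, 8.69 and 9.86 in untreated rosettes (log2 -0.65 ± 0.26; adjusted p = 0.0673). In both, untreated replicate 2 alone was low, below every treated array for petL and among them for petG. Without it petL stood at -1.21 (adjusted p = 0.000168) and petG at -1.06 (adjusted p = 1.90e-05). The petN level was likewise lowest in untreated replicate 2, at 7.34 against 7.90 and 7.96 in the other untreated arrays (log2 0.10 ± 0.14).

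Of 10 ndh genes, 5 fell, 5 did not pass and all 10 differences were negative. The gene ndhJ, for a subunit of the arm that faces the stroma, had 10.80, 10.97 and 10.59 in treated rosettes, against 12.20, 11.82 and 11.70 in untreated rosettes (log2 -1.12 ± 0.13; adjusted p = 3.63e-05). The gene ndhK, for an iron-sulfur subunit of the same arm, had 9.90, 10.31 and 9.59 in treated and 11.13, 10.88 and 10.82 in untreated rosettes (log2 -1.01 ± 0.15). The gene that opens this unit in the direction of transcription, ndhC, for a membrane subunit, had 12.05, 12.18 and 12.14 in treated and 12.29, 12.32 and 12.17 in untreated rosettes (log2 -0.14 ± 0.08; adjusted p = 0.211; log2 0.02 with arrays anchored on the brighter spikes). The groups did not overlap for ndhJ and ndhK, and overlapped for ndhC. In the longer ndhA unit, ndhH fell 1.60-fold, ndhD 1.27-fold and ndhA 1.24-fold. The ndhD call ended in 4 of the 6 fits with an array left out: untreated 1 (log2 -0.24), untreated 2 (log2 -0.33), treated 1 (log2 -0.35) and treated 3 (log2 -0.29). The ndhA call ended when treated 1 was left out (log2 -0.24). Treated replicate 2 was high for ndhE, at 9.34 against 8.74 and 8.25, and for ndhG, at 7.80 against 7.24 and 6.81. Without it ndhE stood at -0.65 (adjusted p = 0.0245) and ndhG at -0.67 (adjusted p = 0.0120), against -0.37 and -0.42 with all arrays, and 8 of the 10 ndh genes passed. Without treated replicate 1, 3 of them passed. The ndhF level was low in all arrays, at 5.27 to 5.31 in treated and 5.35 to 5.55 in untreated rosettes (log2 -0.17 ± 0.08; adjusted p = 0.113).

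Of the 4 genes of the plastid-encoded polymerase, 3 fell. The rpoA gene, for the alpha subunit, had 12.24, 12.34 and 12.40 in treated rosettes, against 12.82, 12.85 and 12.81 in untreated rosettes (1.41-fold lower, log2 -0.50 ± 0.08; adjusted p = 0.000244). The gap between the groups was larger than the spread in either. In the rpoB unit, rpoC1 had 10.71, 11.12 and 10.92 in treated and 11.81, 11.26 and 11.42 in untreated rosettes (log2 -0.58 ± 0.14; adjusted p = 0.00601). The beta subunit gene rpoB fell 1.29-fold (log2 -0.37 ± 0.10) at a level of 5.16 to 5.28 in treated and 5.44 to 5.78 in untreated rosettes. On the brighter spikes rpoB stood at -0.22 (adjusted p = 0.114), on the hybridization controls at -0.27 (adjusted p = 0.117), and without moderation its adjusted p was 0.0686. The rpoC2 difference was -0.46 ± 0.17 (adjusted p = 0.0539). It passed without untreated replicate 2 (log2 -0.55) or 3 (log2 -0.62) and with the replicate block (adjusted p = 0.0380), and was -0.20 without untreated replicate 1. All treated arrays lay below all untreated ones for the 4 genes, rpoC2 included, as they did for 26.7% of all probe sets.

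Of 7 genes for proteins of the large ribosomal subunit, 6 fell and rpl32 did not pass (log2 -0.11 ± 0.10, and 0.04 on the brighter spikes). The largest decrease was in rpl36, at 11.09, 11.41 and 11.26 in treated rosettes, against 12.24, 11.81 and 11.88 in untreated rosettes (log2 -0.73 ± 0.12; adjusted p = 0.000485). The rpl20 level was 9.66, 9.77 and 9.24 in treated and 10.45, 10.31 and 10.03 in untreated rosettes (log2 -0.71 ± 0.14; adjusted p = 0.00173). Neither gene had overlapping groups. The genes rpl14, rpl16, rpl33 and rpl22 fell 1.58-, 1.54-, 1.41- and 1.27-fold.

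Of 8 genes for proteins of the small ribosomal subunit, 4 fell, 1 rose and 3 did not pass. The rps18 gene fell 1.57-fold (log2 -0.66 ± 0.12; adjusted p = 0.000806), with 9.47, 9.85 and 9.43 in treated and 10.30, 10.34 and 10.08 in untreated rosettes. The rps2 level was 10.67, 10.90 and 10.49 in treated and 11.15, 11.10 and 11.17 in untreated rosettes, without overlap. The genes rps19 and rps3 fell 1.35- and 1.27-fold. The rps3 difference of -0.34 was -0.19 (adjusted p = 0.104) on the brighter spikes and -0.24 (adjusted p = 0.161) on the hybridization controls. The rps14 level was 7.29, 7.05 and 7.12 in treated rosettes, against 6.39, 6.25 and 6.33 in untreated rosettes (log2 0.83 ± 0.09; adjusted p = 1.34e-05). All treated arrays were above all untreated ones, and the rps14 call held in all 18 alternative fits. The genes rps4, rps15 and rps16 stood at -0.17, -0.29 and -0.23 without passing; rps16 passed without treated replicate 2 (log2 -0.41; adjusted p = 0.0442).

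Along the plastid chromosome, neighbours of a unit had close log2 differences in some places and unlike ones in others, as a description. In the unit of ribosomal genes that ends with rpoA, all 7 measured genes fell, by log2 -0.73 to -0.34. In the atpI unit all 5 measured genes fell, by log2 -0.94 to -0.46. Elsewhere they differed. The genes rps14, psaB and psaA, which lie side by side, stood at 0.83, -0.12 and -0.76. In the psbB unit, psbB, psbT and psbH fell and petD rose. The petB gene did not pass (log2 -0.19), though all its treated arrays lay below all untreated ones. The rps14 and petD probe sets, which rose, were dim, with mean levels of 6.74 and 6.24. The outermost measured genes of each of 13 units were compared on each array as a difference of log2 levels, and the change in that difference was tested with an exact two-sided permutation test, where 3 against 3 arrays allow no p below 0.10. The groups did not overlap for 4 of the 13 pairs, each with exact p = 0.10 and an adjusted p of 0.325 over the 13 pairs. Since 0.10 is the lowest p these arrays allow, the test cannot decide whether neighbours of a unit differ. Among single probe sets, the treated arrays lay wholly below for 26.7% and wholly above for 24.0%. The share for pairs of other genes was not computed, so the count of 4 has no like figure beside it. These were rps14 against psaA (1.59 ± 0.23), psbB against petD (-1.37 ± 0.18), ndhJ against ndhC (-0.98 ± 0.17) and psbK against psbI (-0.34 ± 0.07). The other 9 pairs had exact p of 0.20 to 1.00, with the pair atpE and atpB at 0.03 ± 0.08 and rpoA against rps19 at -0.07 ± 0.09.

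**Figure D3:**
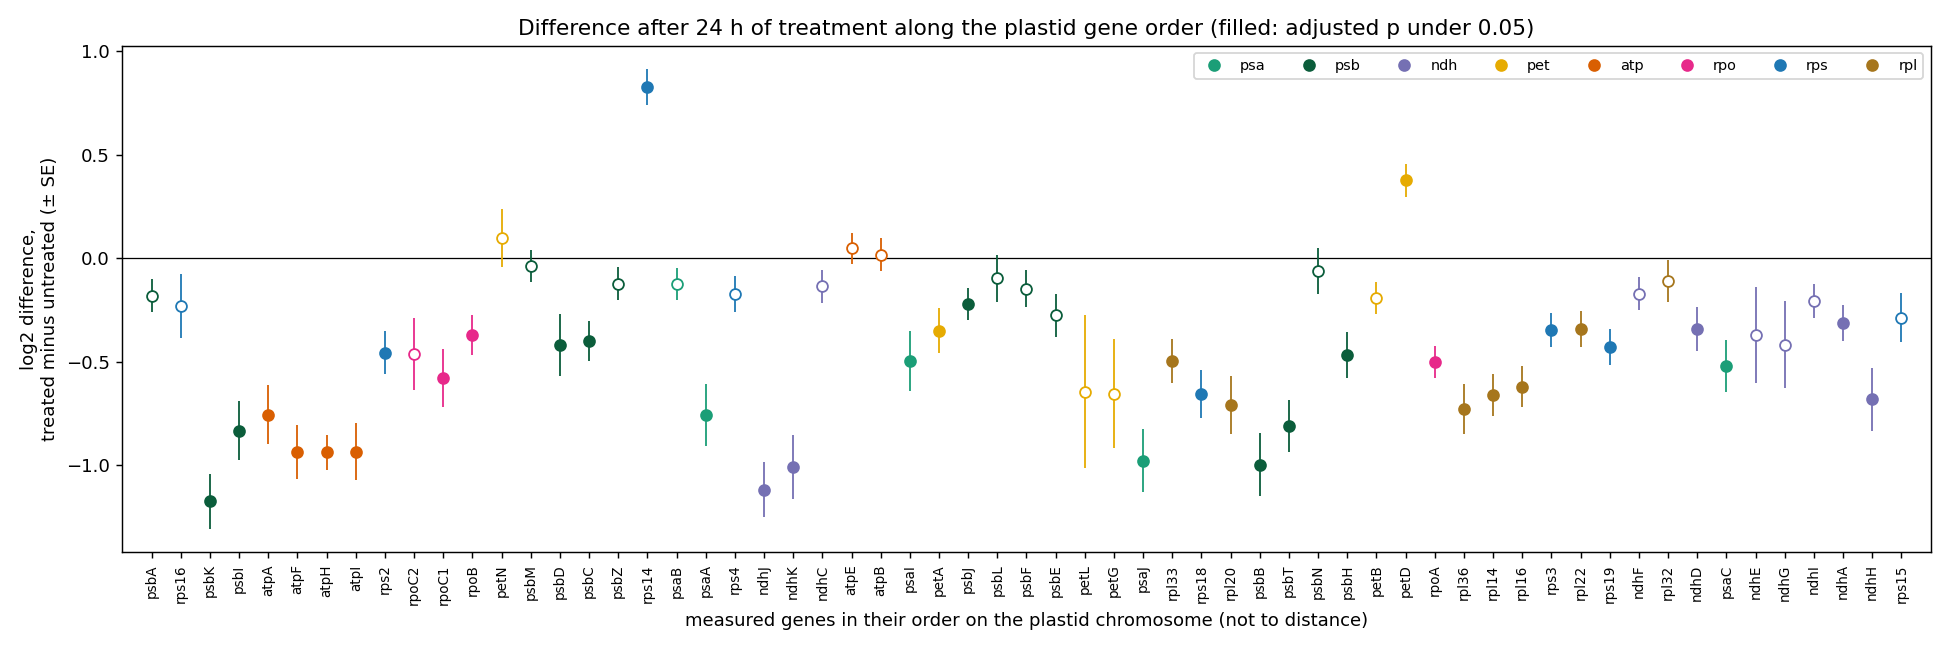
Log2 difference, treated minus untreated, of the 61 plastid genes in their order on the plastid chromosome (horizontal axis, equal steps, not distance), with SE bars. Filled points passed an adjusted p of 0.05, and colours mark the stems. The rps14 gene at 0.83 and petD at 0.38 stand above 0. The genes on either side are psbZ and psaB, both at -0.12, for rps14, and petB at -0.19 and rpoA at -0.50 for petD.

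By level, the decreases were most frequent among genes of middle signal. Of the 21 dimmest of the 61 genes (mean levels 5.38 to 9.98), 10 fell and 2 rose, with a median difference of -0.42. Of the next 20 (10.002 to 11.7), 16 fell and none rose, with a median of -0.61. Of the 20 brightest (11.8 to 14.1), 9 fell and none rose, with a median of -0.21. Among all probe sets in those level ranges, 30.8%, 33.2% and 34.2% were lower, with medians of -0.01, 0.00 and -0.09. Whether these groups of genes differ was not tested. The counts were close when genes were ordered by treated level (10, 17 and 8 lower) or by untreated level (9, 17 and 9 lower). At a level of 13 or more, a limit chosen after the values were seen, none of 8 plastid genes passed (psbM, psbZ, psaB, rps4, atpE, atpB, petB and ndhI, log2 -0.21 to 0.05), against 37.5% lower among the 72 probe sets at such levels. The median difference was close, at -0.12 for the 8 genes and -0.14 for the 72 probe sets. With trend and robust moderation petB and ndhI passed. Across the 61 genes, the size of the difference and the mean level had Pearson's r = -0.22 and Spearman's rho = -0.36, as a description, since genes of one unit share transcripts. For the signed difference these were -0.03 and 0.22, which differ in sign. Both genes that rose were among the dimmer ones, rps14 at the 56.3th percentile of probe sets and petD as given above. The genes with the lowest levels, ndhF and rpoB, stood at the 39.4th and 39.6th. Whether these levels are above background was not tested.

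**Figure D4:**
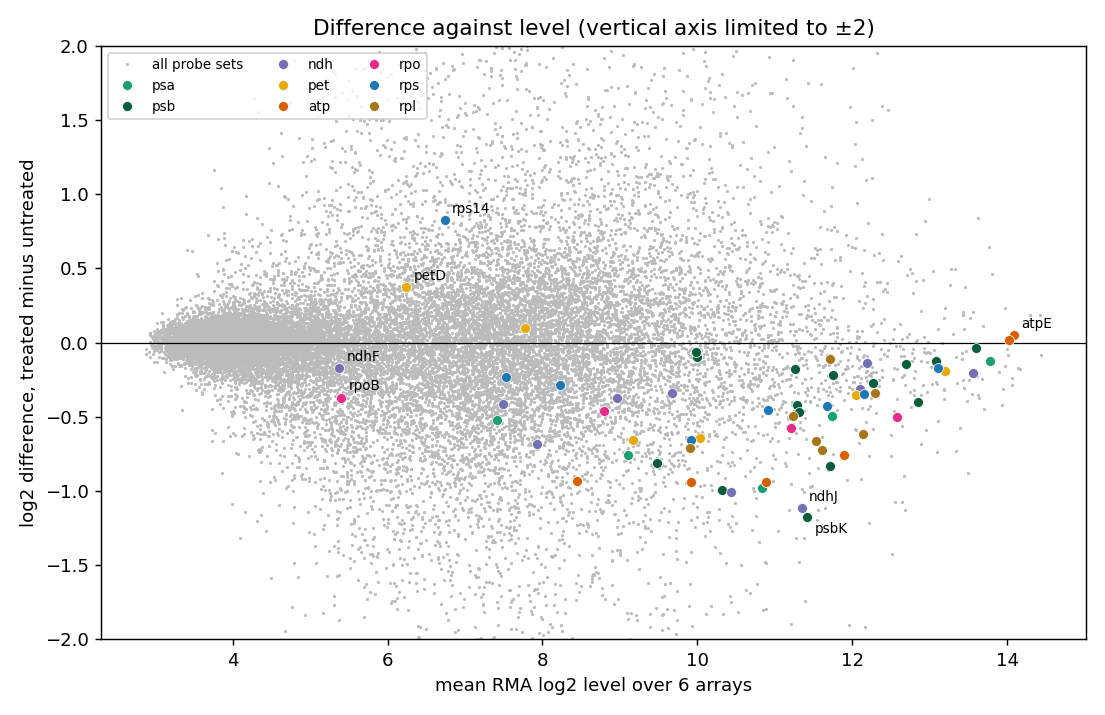
Log2 difference, treated minus untreated (vertical axis, limited to ±2), against mean RMA log2 level over the 6 arrays (horizontal axis) for the 61 plastid genes, coloured by stem, and all probe sets in grey. Members at levels of 13 or more lie between -0.21 and 0.05, and psbK and ndhJ, near a level of 11.4, lie at -1.17 and -1.12.

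The other plastid-encoded genes with a probe set of their own numbered 8, of which 6 fell and none rose, with a median of -0.39. The share that fell was 75%, against 22.2% of all probe sets. The photosystem I assembly gene ycf3 had 10.53, 10.63 and 10.46 in treated rosettes, against 11.64, 11.17 and 11.33 in untreated rosettes (log2 -0.84 ± 0.11; adjusted p = 9.61e-05), and ycf4, also for photosystem I assembly, fell 1.59-fold. The accD gene of fatty acid synthesis, which the nucleus-encoded polymerase is known to read, fell 1.43-fold (adjusted p = 0.0450), though its groups overlapped. Smaller decreases were in cemA, ccsA and matK. The Rubisco large subunit gene rbcL had 11.83, 11.87 and 11.66 in treated and 11.91, 11.71 and 11.56 in untreated rosettes, and the groups overlapped (log2 0.06 ± 0.10; adjusted p = 0.679). The protease gene clpP did not pass (log2 -0.07 ± 0.09). Of 15 mitochondrion-encoded genes, 2 fell, 3 rose and 10 did not pass, with a median of -0.07. These shares, 13.3% lower and 20% higher, were below and near the 22.2% and 19.4% of all probe sets. Their largest changes were in cox2, for a subunit of cytochrome oxidase (log2 0.72 ± 0.08), and ccb382, for cytochrome c assembly (log2 -0.50 ± 0.13). Of the complex I genes, nad4L (log2 0.32 ± 0.09) and nad6 (log2 0.23 ± 0.07) rose and nad4 fell (log2 -0.25 ± 0.09; adjusted p = 0.0493). The 3 that rose were dim, with cox2, nad4L and nad6 at level percentiles of 35.4, 33.2 and 19.4 among probe sets. The 2 that fell, ccb382 and nad4, were at percentiles of 87.4 and 74.7. No test was made of whether the dim levels are above background. Whether the plastid and the mitochondrial genes differ as groups was not tested.

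Nuclear genes of the same complexes could be followed for only a few names. Both photosystem I subunit genes fell, PSAE-1 1.24-fold and PSAN 1.21-fold. Of 2 photosystem II genes, PSBY fell 1.3-fold and PSBW did not pass (log2 -0.17 ± 0.08). ATPC1 and ATPC2, for gamma subunits of the ATP synthase, and NdhL did not pass (log2 -0.19 to -0.12). MRL7-L, which is needed for transcription by the plastid-encoded polymerase, fell 1.40-fold (log2 -0.49 ± 0.08; adjusted p = 0.000513). Of 10 nucleus-encoded factors that edit or splice plastid transcripts, 3 fell, 1 rose and 6 did not pass, with a median of -0.13. Over all probe sets 22.2% fell and 19.4% rose. The splicing factor gene CAF1 had 7.57, 7.73 and 7.80 in treated rosettes, against 7.10, 7.48 and 7.15 in untreated rosettes (log2 0.46 ± 0.11; adjusted p = 0.00505). CRR21, which edits ndhD transcripts, had 7.03, 7.01 and 7.09 in treated and 7.37, 7.64 and 7.51 in untreated rosettes (log2 -0.46 ± 0.09; adjusted p = 0.000960). OTP84, which edits ndhB, ndhF and psbZ transcripts, fell 1.24-fold and LPA66, which edits psbF transcripts, 1.20-fold. OTP86, which edits rps14 transcripts, stood at log2 0.00 ± 0.09 with levels of 4.30 to 4.38 in treated and 4.24 to 4.50 in untreated rosettes. No sigma factor, phage-type polymerase or nucleus-encoded plastid ribosomal protein gene could be tied to a probe set by its listed symbol.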

How the data were processed

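RNA of 6 samples was hybridised to Affymetrix ATH1 arrays after 3' labelling, per the labels' protocols. The deposited table gives 1 log2 level for each probe set and array. RMA, without a version, is the tool in the submitters' processing notes, and the sources used here do not say which arrays it took together. The replicates are labelled biological; which plates they came from is not given. There were 0 columns with no sample here. Tests ran on 22746 of the 22810 probe sets, all but 64 controls, with no filter.

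Symbols were read from the platform annotation and brought up to date with RefSeq's genes (TAIR10.1), from which gene order also came. Transcription units are textbook knowledge. The test was limma's (3.58.1, under R 4.3.3; lmFit, eBayes, treated minus untreated, no covariates, two-sided). Python 3.11.15, pandas 2.3.3, scipy 1.17.1 and matplotlib 3.10.9 were used for counts, permutation tests and plots. Of these steps, only the limma fit was tested on simulated data.

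The genes and lists were chosen with earlier results of these data known. Any of the 61 could be named; in each stem the 2 largest changes past the threshold in each direction are given on every array, and in each other list the 2 largest are named. A pair of entries of the list of RNA factors were dropped because they name genes of other functions. The median SE was 0.11 over the 61 genes and 0.09 over all probe sets, and precision is limited by having few arrays. Alternatives are given in the closing section.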

Additional observations from a re-analysis of the deposited data

How the results depend on the processing

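With 3 arrays a group, dim probe sets and the RMA scale limit what can be read. Counts of genes lower are given for all 61 (35 in the fit reported) and by stem (psa 4, psb 8, ndh 5, pet 1, atp 4, rpo 3, rps 4, rpl 6). Leaving out single arrays gave 30 to 38 lower and 2 higher, so 32 to 40 changed, medians of -0.51 to -0.31, and 3 to 8 lower for ndh, 0 to 2 for pet, 3 to 4 for psa, 6 to 7 for psb, 3 to 4 for rpo, 4 to 5 for rps, 4 for atp and 6 for rpl. The pet count was 0 without untreated replicate 1 or treated replicate 3 and 2 without untreated replicate 2. In these fits 29 genes were lower every time.

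Anchoring on the brighter poly(A) spikes gave 69.0% higher among called probe sets, against 46.6% as deposited, and 4 lower for psb, 3 for ndh, 0 for pet, 2 for rpo and 3 for rps. Anchoring on the hybridization controls gave 60.1% higher, and 5 lower for psb, 3 for ndh, 2 for pet, 3 for rpo and 3 for rps. Anchoring on all 24 poly(A) spikes gave 0 for pet. Repeated quantile normalization, trend and robust moderation, and array weights each gave 2 for pet. Without moderation 19 changed and 17 were lower, with psa 1, psb 4, ndh 2, pet 0, rpo 1 and rpl 3. At an adjusted p of 0.01, ndh had 3 and pet 0. Asking for a change beyond 0.5 on the log2 scale (treat in limma), 2699 probe sets were called in place of 9479, and 9 plastid genes: 8 lower and 1 higher, with psa 1, psb 2, ndh 2 and 0 for pet, rpo, rps and rpl.

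Signs turned only for genes that did not pass. With the brighter spikes these were psbM (0.114), psbZ (0.0283), psaB (0.0271), ndhC (0.0165), psbL (0.0555), psbF (0.00475), psbN (0.0905) and rpl32 (0.0427). With all spikes they were psbM (0.0309) and psbN (0.00745), with the hybridization controls psbM (0.0670), psbL (0.00852) and psbN (0.0436), and with quantile normalization psbM (0.0529). With array weights atpB turned to -6.92e-06. Over the fits with single arrays left out, petN ranged from -0.0971 to 0.210, atpB from -0.0242 to 0.0724 and psbN from -0.185 to 0.0136. The causes were not tested.

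Whether the replicate numbers pair the samples is not given, and the values cannot settle it. Deviations from group means of same-numbered arrays correlated at 0.07, -0.06 and 0.00 across probe sets. Treated replicate 3 correlated best with untreated replicate 2 (0.10), so same-numbered arrays did not stand out. With the replicate number as a block, 9190 probe sets were called, 35 plastid genes were lower and 2 higher, psb had 7 and rpo 4, and the median stayed at -0.42. Leaving out the dimmest 40% of probe sets removed ndhF and rpoB and left the other counts within 1.5 times of those reported. Taking the mean of all probe sets of a gene was not run, because each gene had 1 probe set.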
